A study of Mus musculus with 8 samples.

Results

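Neat1 and Malat1 are long noncoding RNAs that stay in the nucleus, and Nono, Sfpq and Pspc1 encode RNA-binding proteins that assemble on Neat1. These 5 genes were followed in RNA sequencing libraries of E15.5 mouse embryos, each made from whole-embryo cells sorted as endothelial. They were taken by symbol from a table of 23337 genes, in which each of the 5 has 1 row, and they were chosen with values of the comparison below already known. Their own differences between groups are therefore given as a description without p-values, and nothing is read from whether a test called them. The mice carry Cdh5-CreERT2(PAC), a tamoxifen-inducible Cre recombinase under the control of an endothelial gene, and the Cre-dependent allele Rosa26fsTRAP, while the genotype field of every sample reads wild type. In 1 group pregnant females received tamoxifen by gavage at E12.5, and in the other they received none. No group separates the drug from recombination, and the labels list 4 samples per group without saying whether they came from separate litters.

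The table has 9 columns of values but 8 library names, so the names can be laid over the last 8 or the first 8 value columns. With the gene symbol counted as column 1, columns 3 to 5 carry a name without tamoxifen under both readings and columns 7 to 9 a name with tamoxifen. These 6 libraries, 3 per group, were compared and are numbered in table order within each group, from no_tamoxifen_1 and from tamoxifen_1 upward. Column 6 (no tamoxifen in 1 reading, tamoxifen in the other) and column 10 (tamoxifen in 1 reading, no name in the other) are shown apart. The 6 libraries held 12212472 to 19908404 reads in genes, of which the ribosomal RNA precursor Rn45s took 29.4% to 38.7%. The mean log2 level of 10 endothelial markers ranged from 9.19 to 10.5 in the tamoxifen libraries and from 9.82 to 10.5 in the others. The mean of 9 macrophage markers was higher in each of the 6 libraries, 11.1 to 11.8, so a value in these sorts cannot be assigned to endothelial cells. In such bulk samples, fewer cells of a type and less RNA per cell cannot be told apart.

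Neat1 is the architectural RNA of paraspeckles, nuclear bodies that form while it is transcribed and that hold back proteins and RNAs in the nucleus. Its short transcript is polyadenylated, whereas the long transcript, which builds the body, ends without a poly(A) tail. Malat1, made from the neighbouring gene, collects in nuclear speckles next to sites of splicing. Nono, Sfpq and Pspc1 form the DBHS family (Drosophila behaviour/human splicing), whose members pair with one another, and Nono and Sfpq are needed for paraspeckles to form. Because the libraries were made by removing ribosomal RNA rather than by selecting poly(A) tails, transcripts without a tail could be counted.

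The ends of the transcripts are shown because they set which Neat1 forms such a library can hold. Neat1 (ENSMUSG00000092274.3, lincRNA) lies on chromosome 19 at 5824708 to 5845478, and Malat1 (ENSMUSG00000092341.3, lincRNA) at 5795690 to 5802672. Both are transcribed from the minus strand (GRCm38, GENCODE M21), with 22035 bases between them. Long Neat1 and Malat1 are cut by RNase P behind an A-rich tract that folds with U-rich stretches into a triple helix in place of a tail. In the 100 bases that end with that tract, capitals mark the letters TTTTGCTTTT and AAAAAGCAAAA, which both RNAs hold, the first being the reverse complement of the last 10 bases of Neat1. The stretches lie at chr19:5824708-5824807 for Neat1-201 and chr19:5795982-5796081 for Malat1-201.
Neat1-201: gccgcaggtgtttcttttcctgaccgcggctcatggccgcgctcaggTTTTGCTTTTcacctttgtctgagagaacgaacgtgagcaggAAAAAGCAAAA
Malat1-201: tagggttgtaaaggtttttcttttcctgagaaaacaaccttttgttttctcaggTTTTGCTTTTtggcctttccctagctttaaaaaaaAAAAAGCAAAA
The letters of the tract were taken from the end of the annotated Neat1-201, so they stop at position 20771 of 20771 by choice. Malat1-201 runs on behind the same letters, from position 6691 to 6983. On the transcript strand, 0.0169% of 141767 GENCODE M21 transcripts hold both motifs anywhere.

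The short Neat1 transcript ends instead at a polyadenylation signal. Cleavage there is known to use the factor made of Cpsf6 and Nudt21, which binds TGTA. The last 130 bases of Neat1-202, at chr19:5842307-5842436, are shown with TGTA and AATAAA in capitals, searched on the transcript strand.
Neat1-202: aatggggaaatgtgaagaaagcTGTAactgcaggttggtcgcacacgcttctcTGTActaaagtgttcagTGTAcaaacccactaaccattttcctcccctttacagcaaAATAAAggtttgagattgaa
TGTA occurs 3 times before the signal, and 2.24% of 136644 transcripts hold AATAAA and at least 3 TGTA in their last 130 bases. The table has 1 value for Neat1, so its short and long transcripts cannot be told apart. The sources used here do not say whether counting used the strand. Within Neat1 lie 3 annotated small RNA genes, and 2 genes overlap Malat1, of which Gm37376 is on the other strand.

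Neat1 was lower in every tamoxifen library than in every library without tamoxifen. It had 3312, 2477 and 3421 normalised reads without tamoxifen and 1359, 1641 and 1873 with it. The highest tamoxifen library, tamoxifen_3, lay below the lowest library of the other group, no_tamoxifen_2. The means were 3070 ± 516 and 1624 ± 258 (SD, n = 3 each), a 1.89-fold lower level and a log2 difference of -0.92 ± 0.16 (SE) on log2(value + 1). The recovered read counts behind these values were 1326 to 4496 per library. As a share of reads outside Rn45s, Neat1 took 0.0272% (95% Wilson interval 0.0261 to 0.0283) in no_tamoxifen_2 and 0.0201% (0.0194 to 0.0209) in tamoxifen_3, the closest pair between groups. Those intervals cover counting error only.

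Malat1, the most abundant of the 5, was lower by much less. It had 83434, 77332 and 65970 normalised reads without tamoxifen and 61138, 62505 and 63698 with it. These groups did not overlap either, but no_tamoxifen_3 lay only a little above tamoxifen_3. The means were 75578 ± 8863 and 62447 ± 1281 (SD, n = 3 each), 1.20-fold lower, with a log2 difference of -0.27 ± 0.17 (SE). Malat1 took 0.684% to 0.711% of reads outside Rn45s in the tamoxifen libraries and 0.735% to 0.925% in the others.

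The distance between the 2 nuclear RNAs differed between groups as well. There were 25.2, 31.2 and 19.3 Malat1 reads per Neat1 read without tamoxifen and 45.0, 38.1 and 34.0 with it, again without overlap. On the log2 scale the ratio of Neat1 to Malat1 was -4.63 ± 0.35 without tamoxifen and -5.28 ± 0.20 with it (SD, n = 3 each). This ratio within a library does not depend on how libraries were scaled to one another.

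The 3 DBHS protein genes had groups that overlapped. Nono, on chromosome X, had 3589, 3968 and 3165 normalised reads without tamoxifen and 3330, 3420 and 3336 with it, so the tamoxifen libraries lay inside the range of the others. Sfpq, on chromosome 4, had 5384, 5072 and 5649 without tamoxifen and 5378, 5433 and 6087 with it. Its groups overlapped, with tamoxifen_3 the highest. Pspc1, on chromosome 14, had 578, 655 and 533 without tamoxifen and 614, 555 and 602 with it, inside the range of the group without tamoxifen. Log2 differences were -0.082 ± 0.11 for Nono, 0.068 ± 0.10 for Sfpq and 0.0079 ± 0.12 for Pspc1 (SE).

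**Figure D1:**
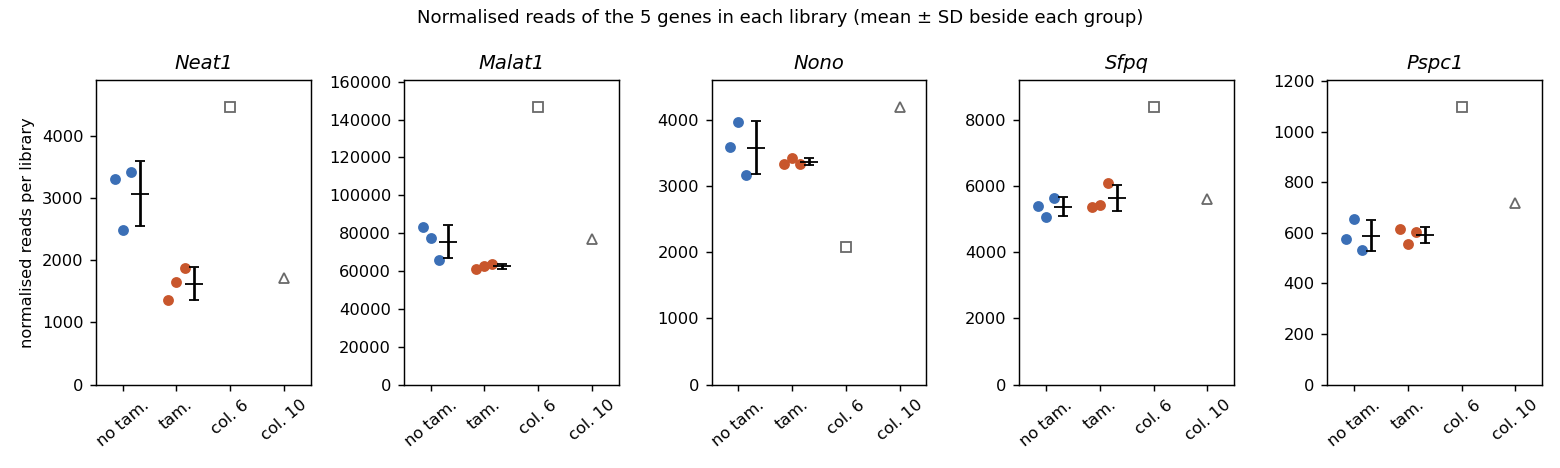
Normalised reads (linear axes from 0) of the 5 genes in each library, with blue points for the 3 libraries without tamoxifen, orange points for the 3 with tamoxifen, black marks for mean ± SD and open symbols for columns 6 and 10. Neat1 sits at 1359 to 1873 with tamoxifen and 2477 to 3421 without it, while the groups overlap for Nono, Sfpq and Pspc1.

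Of the 5 genes, 2 had groups that did not overlap, both lower with tamoxifen, where 7.62% of the 13480 tested genes had groups apart in that direction and 6.24% in the other. None of the 5 was among the 6 genes (0.0445% of those tested) called by limma at an adjusted p under 0.05, all 6 of them higher, or among the 5 (0.0371%) called by edgeR. Neat1 was among the 275 genes (2.04% of those tested) called by DESeq2 on recovered reads, and the other 4 were not. Of the 275, 28 (0.208% of those tested) were lower. Leaving out tamoxifen_3 put Neat1 among 1442 genes called by limma, again without the other 4. Those were 10.7% of all tested genes, and 469 of them, 3.48% of all tested genes, were lower. Among 2228 genes averaging 1000 normalised reads or more, 2 had a lower log2 difference than Neat1 and 230 a lower one than Malat1. Those 2 were Tsix and Xist, named after their values were seen. As the members were chosen from this comparison, nothing is read from these counts.

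Set per kilobase of annotated exon, the order of the 5 genes differed between groups at its lower end. Without tamoxifen the levels in normalised reads per kb were 10823 ± 1269 for Malat1, 1132 ± 60.9 for Sfpq, 817 ± 91.8 for Nono, 148 ± 24.9 for Neat1 and 103 ± 10.7 for Pspc1 (SD, n = 3 each). With tamoxifen they were 8943 ± 183 for Malat1, 1188 ± 83.2 for Sfpq, 768 ± 11.5 for Nono, 103 ± 5.45 for Pspc1 and 78.2 ± 12.4 for Neat1 (SD, n = 3 each). Neat1 per kb thus lay above Pspc1 without tamoxifen (119 to 165 against 93.0 to 114) and below it with tamoxifen (65.4 to 90.2 against 96.8 to 107). Neighbours in the order had ranges that did not overlap in either group. Neat1 was divided by 20771 exonic bases, most of which belong to the long transcript alone.

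The columns without a settled group were unlike each other. In column 10 Neat1 had 1719 normalised reads, within the range of the 3 tamoxifen libraries, and Malat1 had 77093, within the range of those without tamoxifen. There were 44.8 Malat1 reads per Neat1 read in column 10, near the highest tamoxifen library. Column 6 had 4455 reads of Neat1 and 146444 of Malat1, both above each of the 6 libraries, with 32.9 Malat1 reads per Neat1 read. Sfpq (8373) and Pspc1 (1096) were also highest there, and Nono (2083) was lowest. Column 6 had the fewest reads in genes, 8695745, a macrophage score of 5.49 and a mesenchymal score of 12.9, far from the 6 libraries. With column 6 counted as a tamoxifen library the Neat1 log2 difference was -0.55 ± 0.41 and that of Malat1 was 0.039 ± 0.41 (SE). With column 6 in the group without tamoxifen and column 10 with tamoxifen they were -1.03 ± 0.19 and -0.43 ± 0.31.

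Several other measures differed between the groups as well, some of them little or not at all in tamoxifen_3. Mesenchymal markers were high in tamoxifen_1 and tamoxifen_2, with a score over 10 genes of 10.2 and 10.6 against 5.52 to 6.74 without tamoxifen, but tamoxifen_3 was at 6.72. None of the 10 markers was at 0 throughout. The score over 6 cartilage markers, none at 0 throughout, was 9.55, 9.30 and 5.21 with tamoxifen against 4.74 to 5.07 in the other group. Those groups did not overlap, but tamoxifen_3 lay only a little above the range without tamoxifen. Its values of Col2a1 (542 against 403 to 597), Sox9, Comp and Col9a1 were inside that range, and Acan and Matn1 were above it. Erythroid markers were low but also did not overlap, with a score over 5 genes of 2.81 to 2.99 in the tamoxifen libraries against 2.35 to 2.76, and 2 of the 5 were at 0 in all 6 libraries. The macrophage score was 11.2, 11.1 and 11.8 with tamoxifen against 11.5 to 11.7 without it, so tamoxifen_3 lay above that range and the others below. The score over 6 markers of pericytes and smooth muscle was 7.18, 7.19 and 4.25 against 4.81 to 5.73. The part of these cell types in the Neat1 values was not tested. Tamoxifen_3 alone against the 3 libraries without tamoxifen gave a Neat1 log2 difference of -0.70 ± 0.19 (SE). Rn45s was lower with tamoxifen, at 3680867 to 4646590 normalised reads against 4847806 to 5751464. The part of ribosomal RNA removal in these Rn45s values was not tested. Set against Rn45s, the tamoxifen libraries had 369, 368 and 403 Neat1 reads per 1000000 Rn45s reads, and the others had 581, 431 and 706, again without overlap. With reads scaled to the total outside Rn45s, the Neat1 difference was -0.90 ± 0.16 and the Malat1 difference -0.26 ± 0.16.

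Xist, the RNA that coats the inactive X chromosome of females, separated the groups like Neat1. It had 15650, 23506 and 15056 normalised reads without tamoxifen and 11669, 6613 and 8525 with it. The sum of 4 Y-linked genes ran the other way, from 861 to 1067 in the tamoxifen libraries against 118 to 631 in the rest. The part of sex makeup in the Neat1 values was not tested.

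**Figure D2:**
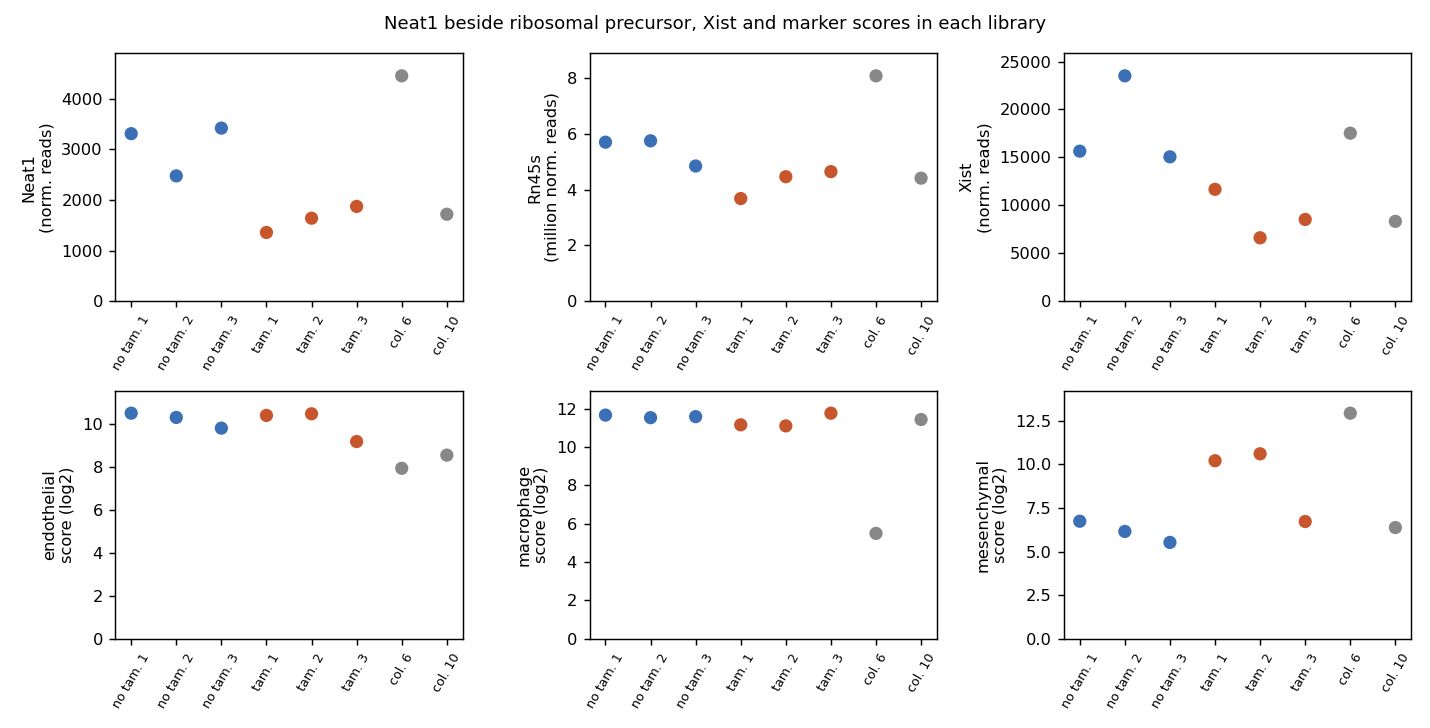
Neat1, Rn45s and Xist (normalised reads) and marker scores (mean log2(value + 1)) in each library, with blue for no tamoxifen, orange for tamoxifen and grey for columns 6 and 10. Neat1 is low in all 3 tamoxifen libraries, whereas the mesenchymal score is high in 2 of them and 6.72 in the third.

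Genes around the 2 loci had differences on both sides of 0. Of the genes annotated within 200 kb on either side of the Malat1 to Neat1 interval, 20 were in the table and 19 were tested. Of these 10 had a positive and 9 a negative log2 difference, with a median of 0.016 against -0.021 over all tested genes. None passed in limma, none had an unadjusted p under 0.05, edgeR called 0 and DESeq2 called 1. Frmd8, the next protein-coding gene upstream of Neat1, had 963, 902 and 964 normalised reads without tamoxifen and 878, 1018 and 1019 with it. Ltbp3, which encodes a binding protein of latent TGF-beta, had the largest difference at 1.23 ± 0.54 (SE, limma adjusted p = 0.55). It had 389, 478 and 95.4 normalised reads with tamoxifen and 139, 117 and 83.7 without it, high in the same libraries as the mesenchymal score. Without tamoxifen_3, limma called Ltbp3 and Ehbp1l1, and the DESeq2 call with all 6 libraries was Ltbp3.

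**Figure D3:**
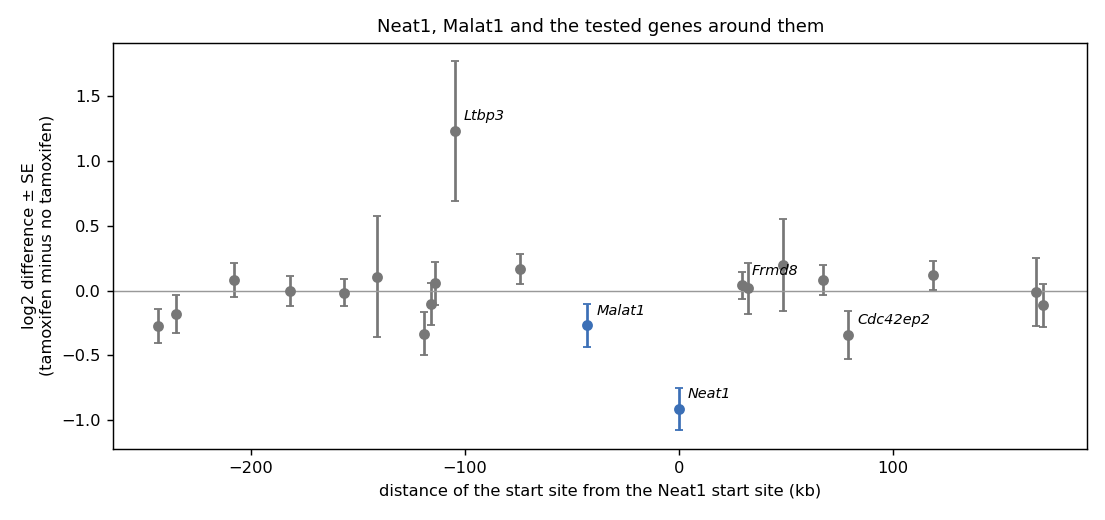
Log2 difference ± SE (tamoxifen minus no tamoxifen) against distance of each start site from that of Neat1 in kb, with Neat1 and Malat1 in blue and the 19 other tested genes in grey. Neat1 at -0.92 is the lowest point, and Frmd8 beside it lies at 0.041.

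Most other genes for paraspeckle proteins had a negative difference, and none passed the test. Of 32 tested, 24 had a negative and 8 a positive log2 difference, with a median of -0.13 against -0.021 over all tested genes. Limma, edgeR and DESeq2 called 0 of them, and 5 had an unadjusted p under 0.05 in limma. Over all 13480 tested genes, 53.5% had a negative difference and 9.01% an unadjusted p under 0.05, the background for this and the following lists. Rbm3, a cold-inducible RNA-binding protein, had 2646, 2909 and 2090 normalised reads without tamoxifen and 1783, 1989 and 1911 with it (log2 difference -0.42 ± 0.13, SE, limma adjusted p = 0.474). Cirbp, which is also cold-inducible, had 308, 283 and 288 without tamoxifen and 159, 242 and 231 with it (-0.50 ± 0.18, limma adjusted p = 0.499). Taf15, which encodes an RNA-binding protein, was at -0.39 ± 0.14 (limma adjusted p = 0.475). For these 3 genes, the lowest in p of the list, the groups did not overlap. Of the 32, 7 had groups apart and lower with tamoxifen and 3 apart and higher. Over all tested genes the shares were 7.62% and 6.24%. Cpsf6 (-0.036 ± 0.097) and Nudt21 (-0.11 ± 0.12), whose products favour the short Neat1 transcript, had overlapping groups. Without tamoxifen_3, limma called 1 of the 32, Ahdc1.

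Nuclear speckle and SR proteins surround Malat1 RNA in the nucleus. Of the 26 tested genes that encode them, none passed the threshold in limma, edgeR or DESeq2, and 1 had an unadjusted p under 0.05 in limma. Their median log2 difference was -0.028, with 11 positive and 15 negative. The splicing factor gene Srsf5 had 4351, 4753 and 3527 normalised reads without tamoxifen and 2424, 3187 and 3217 with it, groups that did not overlap (-0.52 ± 0.15, SE, limma adjusted p = 0.462). It was the 1 member called without tamoxifen_3. Srsf1 was at -0.25 ± 0.12 (limma adjusted p = 0.577) and Snrnp70, a protein of the U1 particle, at -0.24 ± 0.12 (limma adjusted p = 0.582).

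Genes for 3′ end processing and RNA modification, among them subunits of RNase P, were negative in 14 of 15 tested (53.5% of all tested genes), with a median of -0.21. Rpp25 did not reach the mean of 10 normalised reads needed for testing. No member was called by limma, edgeR or DESeq2, and 3 had an unadjusted p under 0.05 in limma (9.01% of all tested genes). Those were the RNase P subunit genes Pop7 (-0.51 ± 0.19, SE, limma adjusted p = 0.505) and Pop1 (-0.40 ± 0.17, limma adjusted p = 0.537) and Wtap (-0.29 ± 0.12, limma adjusted p = 0.535), a partner of the m6A methyltransferase. Pop1 was called without tamoxifen_3. Elac2, which trims the small RNA released from the Malat1 end, was at -0.037 ± 0.12.

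Other nuclear long noncoding RNAs had differences of both signs. Of 13 listed, 10 were in the table and 9 were tested, 4 positive and 5 negative, with a median of -0.071. Limma and edgeR called 0, 4 had an unadjusted p under 0.05 in limma (9.01% of all tested genes), and DESeq2 called 3, which were Meg3, Tsix and Xist. Tsix, the antisense partner of Xist, was at -1.11 ± 0.21 (SE, limma adjusted p = 0.293) and Xist at -1.02 ± 0.24 (limma adjusted p = 0.391), and without known strandedness reads of this pair cannot be told apart. Meg3, an imprinted RNA, was at 2.57 ± 0.73 (limma adjusted p = 0.462), with 1504, 1959 and 198 normalised reads in the tamoxifen libraries and 136 to 144 in the others. Leaving out tamoxifen_3 added calls for Meg3, Miat, Tsix and Xist, and tamoxifen_3 as the only tamoxifen library left Tsix called. Kcnq1ot1, a long nuclear RNA transcribed from an imprinted domain, had 3181, 3515 and 3850 without tamoxifen and 3765, 3511 and 2809 with it, so its groups overlapped.

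Host RNAs of small nucleolar RNAs, spliced noncoding RNAs that are turned over quickly, had 8 of 11 members in the table and tested. None was called by limma, edgeR or DESeq2, 1 had an unadjusted p under 0.05, and the median was -0.22. Gas5 had 1512, 1805 and 1311 normalised reads without tamoxifen and 1030, 1308 and 1041 with it, so tamoxifen_2 lay just under no_tamoxifen_3 (-0.45 ± 0.15, SE, limma adjusted p = 0.475). Snhg5 (-0.32 ± 0.21) and Snhg6 (0.24 ± 0.19) had overlapping groups.

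Known transcriptional regulators of Neat1 had differences near 0. None of 7 was called by limma, edgeR or DESeq2, none had an unadjusted p under 0.05, and the median was 0.042. Hsf1, the main heat shock factor, which is known to induce Neat1 in heat-shocked cells, had 408, 403 and 514 normalised reads without tamoxifen and 482, 504 and 495 with it (0.17 ± 0.13, SE, limma adjusted p = 0.706). Trp53, which encodes p53, was at 0.15 ± 0.14 (limma adjusted p = 0.771), and Arnt, the partner of the hypoxia-inducible factors, at -0.072 ± 0.096 (limma adjusted p = 0.847). Epas1, a hypoxia-inducible factor abundant in endothelium, was called higher without tamoxifen_3 and lower with tamoxifen_3 as the only tamoxifen library, and its values were 1665, 1532 and 490 in the 3 tamoxifen libraries.

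Of 12 heat shock genes tested, 5 rose with tamoxifen in limma (Hspa1a, Hspa1b, Dnajb1, Hsph1 and Bag3), where 0.0445% of all tested genes were called. All 12 differences were positive, with a median of 1.51. The chaperone gene Hspa1b had 44218 to 78419 normalised reads with tamoxifen and 1091 to 1618 without it (limma adjusted p = 8.83e-05). In column 10, where Neat1 was at 1719, Hspa1b had 56354 reads, and in column 6, where Neat1 was at 4455, it had 924. The number called was 4 in edgeR, 10 in DESeq2 and 9 without tamoxifen_3. The shares of all tested genes called in these settings were 0.0371%, 2.04% and 10.7%. The number of heat shock genes called was 3, 2 and 2 without no_tamoxifen_1, no_tamoxifen_2 and no_tamoxifen_3, and 0 with column 6 counted as a tamoxifen library. Any link between these genes and Neat1 was not tested.

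**Figure D4:**
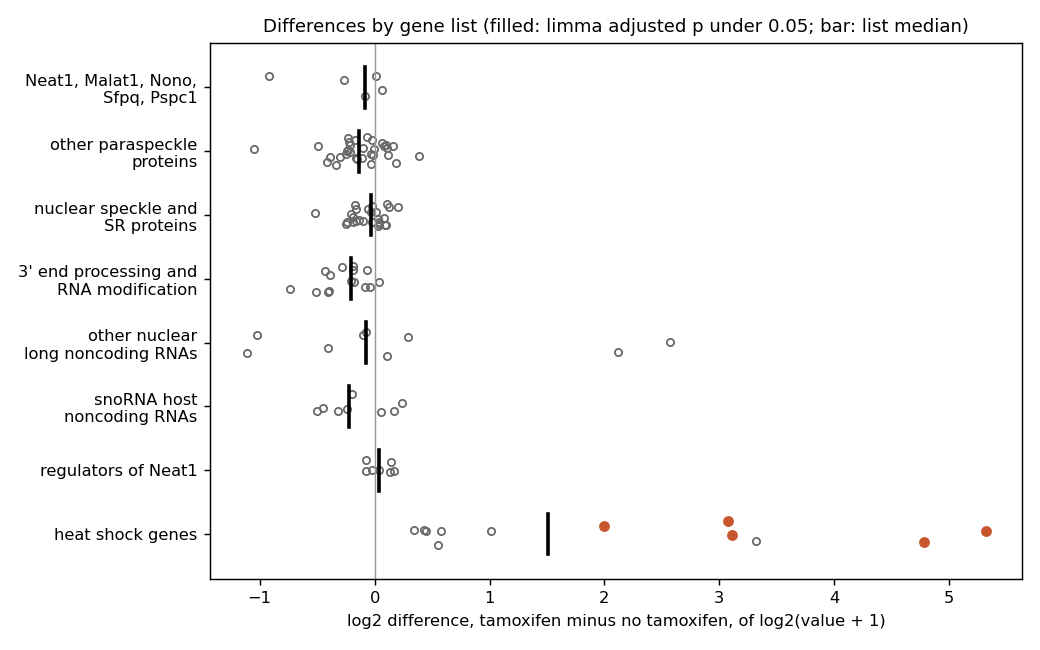
Log2 difference (tamoxifen minus no tamoxifen) of each tested gene by list, with a black bar at the list median and filled points for genes past the limma threshold. Filled points appear in the heat shock list alone (5 of 12), and the 5 genes described here, drawn open whatever their p, run from -0.92 for Neat1 to 0.068 for Sfpq.

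Likeness to the 2 nuclear RNAs was measured as Pearson's r on log2(value + 1) over the 6 libraries, among 10219 named genes with a mean of at least 50. Neat1 and Malat1 had an r of 0.71 with each other, while r with Neat1 was 0.13 for Nono, -0.072 for Sfpq and -0.32 for Pspc1. Rn45s had a higher r with both RNAs, 0.79 with Neat1 and 0.89 with Malat1. With columns 6 and 10 added, Neat1 and Malat1 had an r of 0.74, and r with Neat1 was -0.59 for Nono, 0.55 for Sfpq and 0.43 for Pspc1, each with its sign turned. For Malat1, r went from 0.70 to -0.69 for Nono and from -0.48 to 0.81 for Sfpq, and for Pspc1 it was 0.25 and 0.90. The genes most like Neat1 were Ociad1 (0.98), Mrpl54 (0.98), Pla2g16 (0.98), Zfc3h1 (0.97) and Mipep (0.97). Of these, Pla2g16, which encodes a phospholipase, had a difference near that of Neat1, with 79.0, 67.0 and 76.1 normalised reads without tamoxifen and 41.0, 48.5 and 46.3 with it. Most like Malat1 were Mib1 (0.997), Sacm1l (0.99), Zfp644 (0.99), Zbtb8os (0.99) and Atp2c1 (0.98). Over the same 8 columns, r was 0.27 for Ociad1 and 0.082 for Mib1, against 0.94 for Pla2g16 and 0.98 for Zfp644. These coefficients rest on 6 libraries that share a group difference, and 73 genes had an r over 0.9 with Neat1 and 193 with Malat1.

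In every other way of processing tried, the Neat1 difference stayed negative. It ran from -1.06 to -0.79 when each of the 6 libraries was left out in turn, and from -0.92 to -0.89 over 7 other choices of pseudocount, filter, scaling and test. The same ranges for Malat1 were -0.36 to -0.19 and -0.27 to -0.24. For Pspc1 the sign changed with the library left out, from -0.060 to 0.087.

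**Figure D5:**
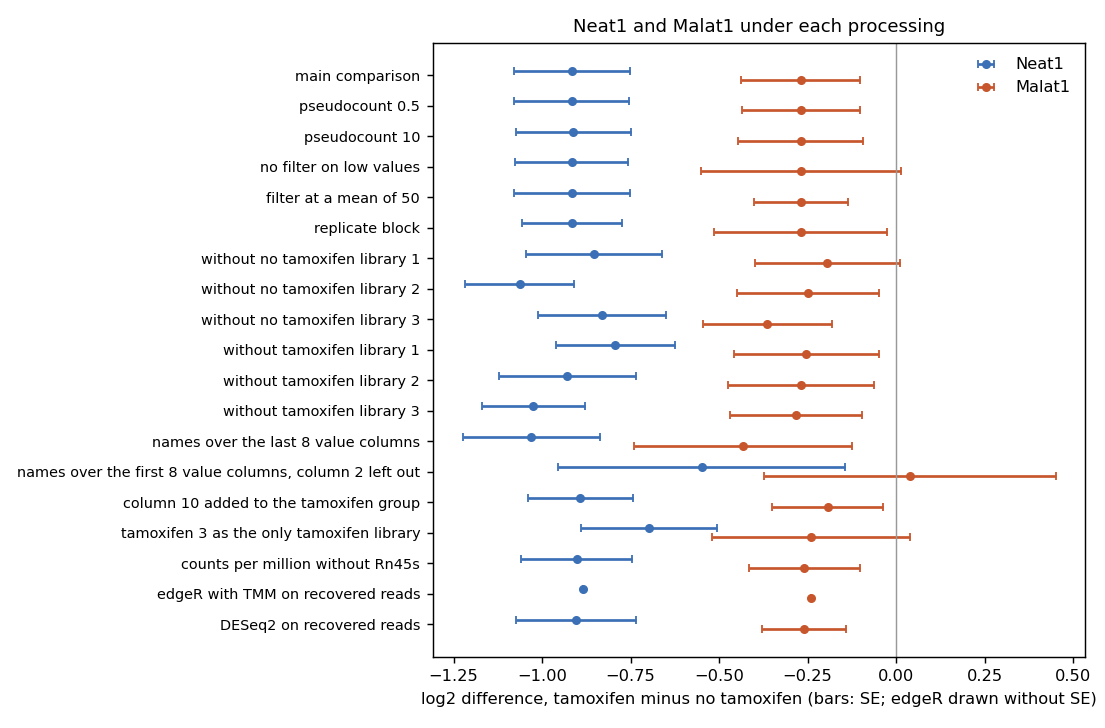
Log2 difference of Neat1 (blue) and Malat1 (orange) under the main comparison and each alternative, with bars for the SE. Neat1 lies between -1.06 and -0.55 throughout, and Malat1 is above 0 (0.039) in the reading that counts column 6 as a tamoxifen library.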

How the data were processed

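The authors deposited 1 table of signal values, named as normalised read counts per gene symbol. Per the submitters' processing notes the tools included HTSeq 0.11.2, STAR and DESeq2, and the builds mm10 and hg38, without roles. In the 8 columns used, 100% of values were whole multiples of 1 step within 0.001 reads, so reads could be recovered. Of the 9 value columns 1, column 2, was not used. It has no name in 1 reading of the header and a name without tamoxifen in the other. Genes with a mean of at least 10 over the 6 libraries (13480) were tested on log2(value + 1) by limma 3.58.1 (R 4.3.3), using a mean-variance trend and a Benjamini-Hochberg threshold of 0.05. Differences are on that scale, which understates changes of low genes. edgeR 4.0.16 and DESeq2 1.42.0 on recovered reads were alternatives. The tests were also run on simulated data, with the same dispersion for every gene and no differences in cell types between libraries. That check does not cover groups as uneven as these. Counts of calls per list under the alternatives were added after seeing the data. The labels name no separate cultures or animals, so p-values reflect only how far these samples vary, possibly for technical reasons. Members and lists were chosen with earlier results of these data known. Named were the 5 members, genes past the threshold and the 3 of lowest p in each list, genes within 200 kb of the locus and the 5 most like Neat1 and Malat1; Cpsf6, Nudt21, Elac2, Kcnq1ot1, Epas1, Rn45s and those called under another setting were chosen after their values were seen. Coordinates and exon lengths are from GENCODE M21, sequences from its transcripts. Some single genes are not reported here.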

Additional observations from a re-analysis of the deposited data

Results flagged for a closer look

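If the header names lie over the last 8 value columns, column 10 joins the 3 tamoxifen libraries, and 2 of the genes stand out in it. Malat1 had 77093 normalised reads there against 61138 to 63698 in the other 3, and Nono had 4183 against 3330 to 3420. If the names lie over the first 8, column 6 joins the same 3 libraries, and 4 genes stand out in it. These were Neat1 at 4455, Malat1 at 146444, Nono at 2083 (the lowest) and Pspc1 at 1096. Each was farther from its nearest neighbour, as a share of the range of the 4 libraries, than Dixon's 95% limit allows. In all, 15 groups of 4 were examined and 6 were flagged. Chance flags about 1 in 20 of independent groups, but these groups share libraries, so the count cannot be set against that rate. Column 6 with the 3 libraries without tamoxifen gave no flag among the 5 genes.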

How the results depend on the processing

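The count of genes called by limma was 6. It was 0 with the names over the first 8 value columns, 91 with tamoxifen_3 as the only tamoxifen library (assumed to vary like the other group), 275 in DESeq2, and 2 to 1442 as each library was left out, with 1442 when tamoxifen_3 was left out. With the replicate number as a block it was 21. Same-numbered libraries had deviations correlated at 0.20, 0.036 and 0.34, and not every library correlated best with its own number, so the numbers were not taken to pair the samples. Differences of the 5 genes moved by over 1 SD between replicates mainly where column 6 entered. With the names over the first 8 value columns, column 2 was left out. The differences were then -0.55 for Neat1, 0.039 for Malat1, -0.25 for Nono, 0.21 for Sfpq and 0.23 for Pspc1. With the names over the last 8 they were -0.43 for Malat1, 0.19 for Nono, -0.093 for Sfpq and -0.15 for Pspc1. With only tamoxifen_3 on the tamoxifen side (assumed to vary like the other group), Sfpq was at 0.18. The cause was not tested. The difference between groups in the log2 ratio of Neat1 to Malat1, -0.65, moved by less than 1 SD in each alternative. Depth was lowest for Pspc1, at 584 to 859 recovered reads.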
